A study of Microtus ochrogaster and Microtus pennsylvanicus and Peromyscus californicus with 10 samples.

Results

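Brain RNA of the California mouse (Peromyscus californicus) was compared with that of the North American deer mouse (Peromyscus maniculatus). Each species was represented by 1 library from the fore- and midbrain of 3 reproductive males whose RNA was pooled, and these are 2 of the 10 libraries of the series. The labels state no age, strain or housing, and both libraries share sex, reproductive state, tissue and pooling. The prairie vole (Microtus ochrogaster) and the meadow vole (Microtus pennsylvanicus), each with 1 library of the same make-up, served only as an outside reference. Reads were assigned to Ensembl protein IDs with the prefix ENSRNOP, which is Ensembl's prefix for rat proteins. The Peromyscus tables together listed 16265 IDs. Of these, 11102 (68.3%) stood in both tables, 2065 in the P. californicus table only and 3098 in the P. maniculatus table only. The 11102 shared IDs had at least 19 raw counts over both tables, so a minimum of 10 counts removed none of them, and all were compared.

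By its title, the series addresses transcriptome profiles that underlie monogamy in several vertebrates. As background, male California mice form lasting pairs and take part in the care of the young, whereas deer mice mate with several partners and the males give little care. In rodents such differences are commonly studied through the vasopressin, oxytocin and dopamine systems of the forebrain and midbrain. A library of the whole fore- and midbrain averages neurons, glia, vessels and choroid plexus, and fewer cells of a type cannot be told apart from less RNA per cell. The deposited tables carry protein IDs without gene names, and 0 of the 19750 rodent IDs were found in the M. ochrogaster gene list at hand. Members of those systems, and markers of brain cell types, were therefore not looked up, and the tissue label was not checked against markers. The labels differ on the RNA that was sequenced, giving total RNA as the molecule, messenger RNA in the design text and a small RNA kit in the protocol. What part of the RNA the counts represent is therefore not settled here. Because reads per ID can also grow with transcript length, the levels below rank IDs by reads and not by molecules.

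The P. californicus table held 79713182 counts over 13167 IDs, and that of P. maniculatus 97529597 counts over 14200 IDs. The vole tables held 258592065 (M. ochrogaster) and 72082947 counts (M. pennsylvanicus). The lowest listed count was 1 in P. californicus, 6 in P. maniculatus, 7 in M. pennsylvanicus and 36 in M. ochrogaster. With 1 library per species there is no replicate error and no test between the species. The 95% intervals are exact binomial ones after Clopper and Pearson. They cover the error of counting reads only, and every difference is one between 2 libraries.

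Among the shared IDs, most stood close together, and a broad minority differed by large factors in both directions. Levels were expressed as counts per 1000000 (CPM) after TMM scaling (trimmed mean of M-values), and the ratio is that of P. californicus to P. maniculatus. The median log2 ratio was 0.01, and the middle 50% of IDs lay between -0.64 and 0.80. A difference of 2-fold or more was found at 4468 IDs, 40.2% of those compared. Of these, 2430 (21.9% of all compared) were higher and 2038 (18.4%) lower in P. californicus. At 8-fold or more (14.9% of IDs), 904 IDs (8.14%) were higher and 750 (6.76%) lower. At 32-fold or more (5.50% of IDs) these counts were 323 (2.91%) and 288 (2.59%). Thus 54.4% of the IDs past 2-fold were higher in P. californicus. This lean depended on the treatment of the tables. It was 61.8% on the deposited RPM, a scale on which the median of all IDs stood 0.22 higher in log2 units, and it turned to 46.7% when unlisted IDs were taken as 0.

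The size of the difference depended on abundance. IDs were divided by the geometric mean of their CPM in the 2 libraries into 5 classes. The class of 1 to 10 CPM had the highest share, with 2082 of 3103 IDs (67.1%) past 2-fold and 31.7% past 8-fold. Below 1 CPM, 264 of 418 IDs (63.2%) passed 2-fold and 21.8% passed 8-fold. From 10 to 100 CPM, the largest class, 1819 of 5629 IDs (32.3%) passed 2-fold. From 100 to 1000 CPM this held for 291 of 1874 IDs (15.5%), and at 1000 CPM and over for 12 of 78 (15.4%). The abundant classes were thus under the 40.2% of all compared IDs, and the scarce classes above it. The median size of the log2 ratio, in either direction, was 1.84 from 1 to 10 CPM, 0.59 from 10 to 100 CPM and 0.34 from 100 to 1000 CPM. At 1000 CPM and over it was 0.26, and 51.3% of those 78 IDs lay within 1.2-fold of each other.

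**Figure D1:**
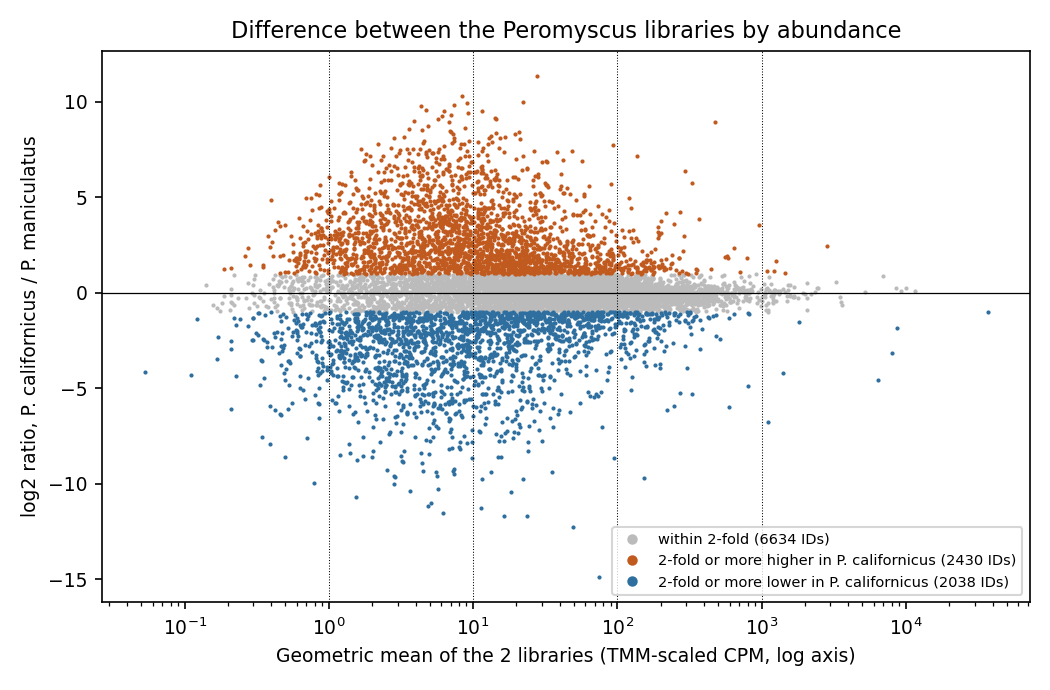
Each point is 1 of the 11102 IDs listed in both Peromyscus tables, with the geometric mean of the TMM-scaled CPM on a log axis and the log2 ratio of P. californicus to P. maniculatus on the vertical axis. Dotted lines mark the class limits at 1, 10, 100 and 1000 CPM, and the cloud is widest between 1 and 10 CPM, where 67.1% of IDs passed 2-fold, and narrow from 100 CPM up.

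Counting error made up little of this spread. In the class under 1 CPM the variance given by counting was 2.45% of the observed variance of the log2 ratio, and in the other classes it was 0.299% or less. The median half-width of the interval was 0.67 log2 units under 1 CPM, 0.28 from 1 to 10 CPM and 0.08 from 10 to 100 CPM. The whole interval lay past 2-fold for 4079 IDs (36.7%), of which 2235 were higher and 1844 lower in P. californicus. Variation between animals, and between repeated libraries of 1 species, was not measured, so these intervals do not say how many of the differences belong to the species.

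The direction of the differences also varied with abundance. From 1 to 10 CPM, 1142 IDs were 2-fold or more higher and 940 lower in P. californicus, and the median log2 ratio was 0.24. From 10 to 100 CPM the counts were 1043 and 776, with a median of 0.04, against 1279 and 623 and a median of 0.26 on the deposited RPM. Under 1 CPM more IDs were lower (149) than higher (115), but on the deposited RPM the counts were 135 and 130 and the median was -0.04. From 100 to 1000 CPM, 125 were higher and 166 lower, with a median of -0.10. The direction in this class rested on the scaling, since on the deposited RPM 166 IDs were higher and 115 lower and the median was 0.12. At 1000 CPM and over, 5 were higher and 7 lower, against 7 and 6 on the deposited RPM. All 4 of the IDs that passed 8-fold in this class were lower in P. californicus.

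**Figure D2:**
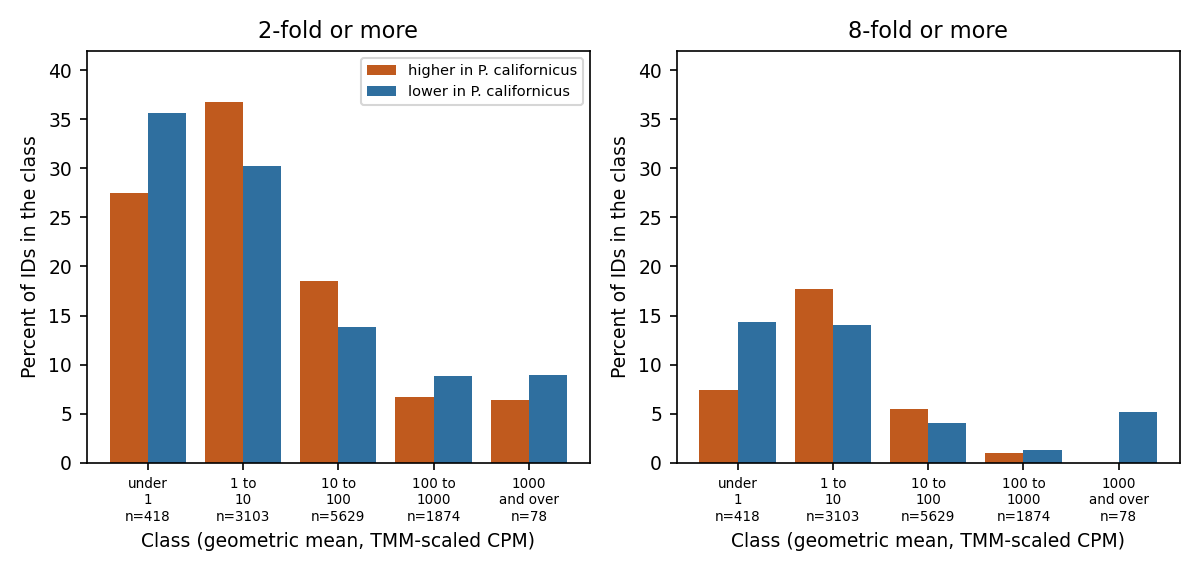
Bars give the percent of IDs in each abundance class (geometric mean of TMM-scaled CPM, number of IDs under each class) that were higher or lower in P. californicus by 2-fold or more (left) and 8-fold or more (right). Higher IDs exceed lower IDs from 1 to 100 CPM, and lower IDs exceed higher ones under 1 CPM and from 100 CPM up, where the order at 2-fold turns on the deposited RPM.

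Abundance classes made from the Peromyscus libraries use the same values as the ratio. With classes taken from the 2 vole libraries, which the ratio does not use, 56.3% of 2342 IDs passed 2-fold from 1 to 10 CPM and 36.6% of 5280 from 10 to 100 CPM. The share was 19.8% of 1638 IDs from 100 to 1000 CPM and 11.9% of 67 IDs at 1000 CPM and over. Under 1 CPM in the voles, a class of 48 IDs, it was 64.6%, with 29.2% past 8-fold against 22.2% from 1 to 10 CPM. With this ranking the scarcest class, and not that of 1 to 10 CPM, had the highest shares. The fall with abundance was therefore also present with a vole-based ranking, and less steep between 1 and 1000 CPM. The vole classes cover only the 9375 IDs listed in all 4 rodent tables, scaled over 4 libraries. Of these 38.5% passed 2-fold, against 40.2% of the 11102. The ranking, the IDs and the scaling thus changed together, and their parts in the steepness were not separated. Across the 11102 IDs, the libraries correlated at r = 0.65 (Spearman's rho 0.70) on log2 CPM. These points share 2 libraries and 1 assignment of reads, and IDs are not independent replicates.

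Reads were unevenly spread over IDs in both species, and less so in the P. californicus library than in P. maniculatus or either vole. The 10 IDs with the most reads held 10.4% of the counts in P. californicus and 18.1% in P. maniculatus, and the 100 highest held 24.5% and 33.5%. To reach 50% of the counts took 747 IDs for P. californicus but 467 for P. maniculatus. In the voles, the 10 highest held 17.9% (M. ochrogaster) and 23.1% (M. pennsylvanicus), and 50% took 575 and 345 IDs. The lists of the highest IDs overlapped in part. Of the 10 highest of each species 4 were shared, of the 100 highest 65, and of the 1000 highest 664. Of the 100 highest of P. californicus, 5 were not listed for P. maniculatus and 21 more were 2-fold or more lower there. Of the 100 highest of P. maniculatus, 6 were not listed for P. californicus and 24 more were 2-fold or more lower there.

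The 3 IDs with the most reads in each library are given for their abundance. ENSRNOP00000039048 was first in both, with 24369 RPM (reads per 1000000, as deposited) in P. californicus against 41837 RPM in P. maniculatus. The voles had 33990 (M. ochrogaster) and 29579 RPM (M. pennsylvanicus) of this ID, between the Peromyscus values. In P. californicus the next was ENSRNOP00000046414, which had 11201 RPM there and 8841 in P. maniculatus. It was followed by ENSRNOP00000039438, with 10275 RPM there and 7363 in P. maniculatus. Both IDs were thus at like levels in the Peromyscus mice, with log2 ratios of 0.12 and 0.26. The M. pennsylvanicus library had 23965 and 13495 RPM of them, whereas M. ochrogaster had 34.0 and 607 RPM.

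The IDs that came next in P. maniculatus were not at like levels in P. californicus. ENSRNOP00000065673 had 25144 RPM in P. maniculatus and 1238 in P. californicus, a log2 ratio of -4.57. The voles had 3201 (M. ochrogaster) and 3273 RPM (M. pennsylvanicus), between the Peromyscus values. ENSRNOP00000044573 had 21067 RPM in P. maniculatus, with 67297 RPM in M. ochrogaster and 21081 RPM in M. pennsylvanicus, and was not listed for P. californicus. It held 2.20% of all listed counts of P. maniculatus.

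A large part of the reads sat on different IDs in the 2 species. Over the shared IDs, 28.9% of the counts of one library would have to be moved to other IDs to give the shares of the other. Of this amount, 50% came from 267 of the 11102 IDs. Over the 9375 IDs listed in all 4 rodent tables the value was 28.0% for the Peromyscus pair and 30.4% to 35.9% for the other 5 pairs of libraries. In the same IDs, 38.5% differed by 2-fold or more between the Peromyscus libraries, against 42.8% to 53.5% between the other pairs. The Peromyscus libraries were thus the closest of the 6 pairs on both measures, each pair being 2 libraries without replicates.

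IDs listed for only 1 Peromyscus species made up 15.7% of the P. californicus table and 21.8% of the P. maniculatus table. They held 6.71% of the listed counts of P. californicus and 10.8% of those of P. maniculatus. Most were scarce, with a median of 4.06 RPM in P. californicus and 2.25 RPM in P. maniculatus. Yet 758 IDs of P. californicus and 748 of P. maniculatus had at least 10 RPM, 138 and 144 had at least 100 RPM, and 5 in each had at least 1000 RPM. The highest reached 2672 RPM in P. californicus and 21067 RPM in P. maniculatus, the latter being ENSRNOP00000044573. The 10 highest held 19.5% of the counts on such IDs in P. californicus, against 48.3% in P. maniculatus.

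The share of IDs not listed for the other species fell with abundance. Of the IDs under 1 RPM, 39.3% of those in the P. californicus table and 49.9% of those in the P. maniculatus table were not listed for the other. From 10 to 100 RPM these shares were 9.60% and 10.1%, from 100 to 1000 RPM 6.61% and 7.77%, and at 1000 RPM and over 5.88% (5 of 85 IDs) and 7.04% (5 of 71 IDs). At an equal RPM, 1551 of the 2065 IDs found for P. californicus only would have had at least 100 reads in the P. maniculatus library. In the other direction this held for 2035 of the 3098 IDs. Neither labels nor headers state what kept an ID out of a table, and an unlisted ID was given no value.

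The voles listed many of these IDs. Of the IDs found for P. californicus only, 1054 (51.0%) were in both vole tables, 844 in 1 and 167 (8.09%) in neither. Of those found for P. maniculatus only, 1686 (54.4%) were in both, 1166 in 1 and 246 (7.94%) in neither. Of the IDs in both Peromyscus tables, 9375 (84.4%) were in both vole tables and 137 (1.23%) in neither. The gap to the shared IDs was present at matched abundance. From 100 to 1000 RPM, 65.4% of the IDs of P. californicus only and 65.5% of those of P. maniculatus only were in both vole tables, against 88.9% and 89.4% of shared IDs. The M. ochrogaster table, the longest with 18547 IDs, listed 87.5% and 88.9% of the IDs found for 1 Peromyscus species, whereas that of M. pennsylvanicus listed 55.5% and 57.6%.

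**Figure D3:**
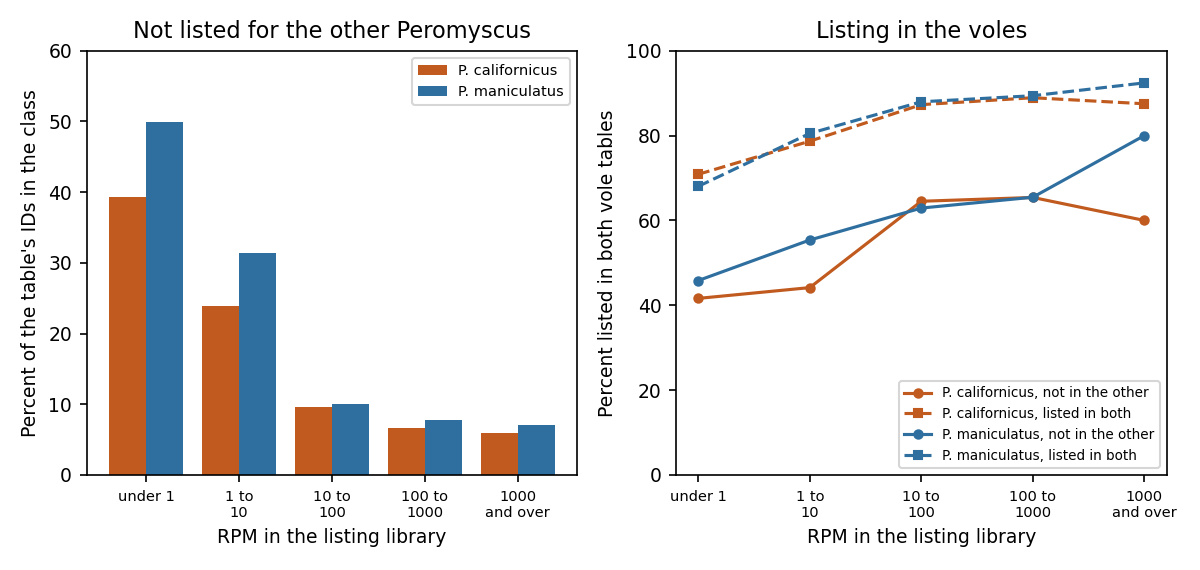
Left, percent of each Peromyscus table's IDs, by RPM class in that library, that were not listed for the other species. Right, percent of IDs listed in both vole tables, for IDs in 1 Peromyscus table (solid lines) and in both (dashed lines), where the solid lines lie below the dashed lines in every class.

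Of the IDs with at least 10 RPM in 1 Peromyscus species and not listed for the other, many stood in both vole tables. These were 490 of 758 (64.6%) for P. californicus and 475 of 748 (63.5%) for P. maniculatus. Among shared IDs of 10 to 100 RPM the shares were higher, at 87.3% (P. californicus) and 88.0% (P. maniculatus). In 205 of the 490 and 189 of the 475, each vole also had at least 10 RPM. The same count was not made for the shared IDs, so whether 205 and 189 are many or few is not known. In neither vole table were 25 of the 758 IDs of at least 10 RPM for P. californicus only, and 40 of the 748 for P. maniculatus only. Of the shared IDs, at any abundance, this held for 137 of 11102 (1.23%).

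For IDs listed in all 4 rodents, the vole levels were used to count which Peromyscus library lay farther from the voles. Levels were scaled by TMM over the 4 libraries for this purpose. A 4-fold or larger difference was found at 2086 of the 9375 IDs (22.3%), of which 1113 (11.9%) were higher and 973 (10.4%) lower in P. californicus. Both voles lay nearer to P. maniculatus on the log scale at 666 of these IDs, 7.10% of the 9375, so that P. californicus stood apart. Both lay nearer to P. californicus at 746 IDs (7.96%), so that P. maniculatus stood apart. The voles were split at the other 674. Each species was thus apart at a similar number of IDs. As shares of the 2086 IDs these were 31.9% (P. californicus) and 35.8% (P. maniculatus). The same rule without a fold limit gave 30.4% and 33.5% over all 9375 IDs. The balance between the species is therefore not particular to the IDs past 4-fold. Apart here means farther from the voles, and not that the other species matched them. At 1587 of the 2086 IDs, there was no Peromyscus species that both voles lay within 2-fold of.

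The library with the lower level was apart more often than the one with the higher level. Of the 1113 IDs higher in P. californicus, both voles were nearer to P. californicus at 543 (48.8%) and nearer to P. maniculatus at 190 (17.1%). Of the 973 IDs lower in P. californicus, both voles were nearer to P. maniculatus at 476 (48.9%) and nearer to P. californicus at 203 (20.9%). Over both directions, the lower species was apart at 1019 of the 2086 IDs (48.8%), the higher species at 393 (18.8%), and the voles were split at the rest. The lower one thus made up 72.2% of the 1412 IDs at which the voles were not split. With at least 100 counts in each of the 4 libraries, this share was 63.2% of 747 IDs. For IDs higher in P. californicus, the median log2 distance to the mean of the voles was 1.06 for P. californicus and -2.52 for P. maniculatus. For IDs lower in P. californicus, it was -2.74 for P. californicus and 1.04 for P. maniculatus. A single vole leaves no ID split, so its shares are over all 2086 IDs and do not compare directly with these. The lower species was apart at 58.2% with M. pennsylvanicus as the only reference, and at 71.8% with M. ochrogaster.

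This pattern changed across abundance classes, but the class and the rule share a value. The geometric mean that set the class is the midpoint against which the voles were placed. Voles lie more often above a low midpoint and below a high one, so the change is partly fixed in advance. From 1 to 10 CPM (geometric mean of the Peromyscus libraries), both voles were nearer to the higher species at 327 of 559 IDs higher in P. californicus and at 307 of 510 IDs lower there. From 10 to 100 CPM the directions were nearly balanced, with P. californicus apart at 136 and P. maniculatus at 176 of 482 higher IDs, and at 110 and 122 of 344 lower IDs. From 100 to 1000 CPM the higher species was the one apart more often. There P. maniculatus stood apart at 37 and P. californicus at 5 of the 55 IDs lower in P. californicus. Of the 35 higher IDs in this class, P. californicus stood apart at 14 and P. maniculatus at 11.

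With classes taken from the voles the order was different. Those classes use the vole levels that the rule itself places. High vole levels therefore favour the side of the higher species, and low ones the side of the lower species. From 1 to 10 CPM in the voles, P. californicus was apart at 116 and P. maniculatus at 108 of 439 IDs higher in P. californicus. From 10 to 100 CPM in the voles, the largest class, the lower species was the one apart more often. There P. maniculatus was apart at 349 and P. californicus at 62 of 569 IDs higher in P. californicus, and P. californicus at 306 and P. maniculatus at 66 of 490 IDs lower there. From 100 to 1000 CPM in the voles, P. maniculatus was apart at 85 of 95 IDs higher in P. californicus, and P. californicus at 55 of 70 IDs lower there. The species that stood apart therefore depended on which libraries set the class, and the share over all classes is not a property of every class. Both rankings use values of the rule, so neither shows how the pattern relates to abundance.

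**Figure D4:**
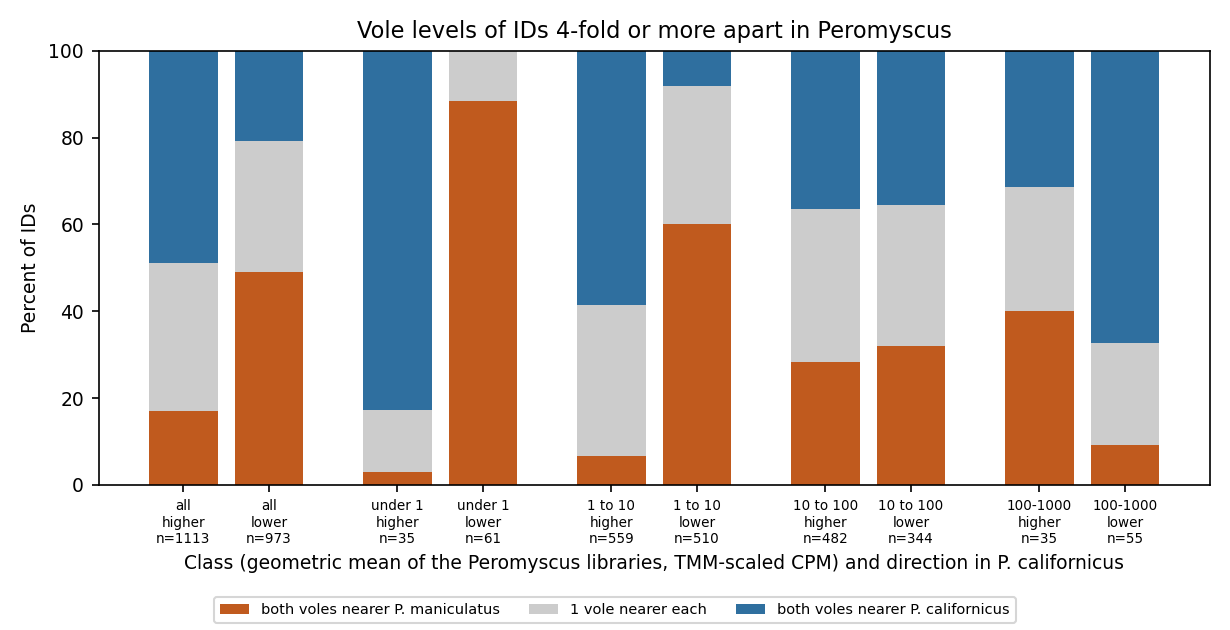
Stacked bars give the percent of IDs, 4-fold or more higher or lower in P. californicus, at which both voles lay nearer to P. maniculatus, both nearer to P. californicus, or 1 nearer to each, for all IDs and for 4 abundance classes. The class of 1000 CPM and over, with 5 IDs, is not drawn separately, and the lower species is apart most often under 10 CPM, whereas P. maniculatus stands apart as the higher species from 100 to 1000 CPM. The class is set by the midpoint that the rule uses, so this order is partly fixed in advance.

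A stricter view counted IDs where 1 library was 4-fold or more beyond each of the other 3, and those 3 lay within 4-fold of each other. P. californicus was the single low library at 255 IDs and the single high one at 73. P. maniculatus was the single low library at 318 IDs and the single high one at 87. Low thus made up 77.7% and 78.5% of these IDs. The voles had 74.4% (M. ochrogaster) and 86.9% (M. pennsylvanicus), so the preponderance of low values was found in all 4 libraries and not in Peromyscus alone. Only IDs listed in all 4 tables were counted. A single high ID thus needs 3 lower levels that are still listed, and a single low ID needs 1. The effect of this limit on the shares was not tested. As a base, the IDs at which the other 3 libraries lay within 4-fold of each other were counted. P. californicus was apart, low or high, at 6.48% of 5064 such IDs, and P. maniculatus at 7.77% of 5211. For M. ochrogaster it was 12.4% of 5753 and for M. pennsylvanicus 8.2% of 5205. Both Peromyscus shares were thus below that of M. ochrogaster, whereas that of P. maniculatus was close to that of M. pennsylvanicus. Each share comes from 1 library without a replicate. The single low value was a median of 15.4-fold (P. californicus) and 14.5-fold (P. maniculatus) below the mean of the other 3 on the log scale.

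Single IDs in which both voles lay within 2-fold of 1 Peromyscus species show the extremes of such differences. They were picked for the most extreme ratios, 1 per direction and species apart, from the IDs with at least 100 counts in each library, so their size is a description of the extremes. The lower Peromyscus count was near that limit at ENSRNOP00000007018 (143), ENSRNOP00000033874 (126) and ENSRNOP00000033271 (104), and was 8397 at ENSRNOP00000019555. P. californicus was apart at ENSRNOP00000007018, with 212 RPM. The others had 1.40 (P. maniculatus), 2.46 (M. ochrogaster) and 2.78 RPM (M. pennsylvanicus). The log2 ratio of P. californicus to P. maniculatus was 7.02 (interval 6.78 to 7.27). Only the P. californicus library was high at this ID. P. californicus was also apart, at the low end, at ENSRNOP00000033874, with 1.48 RPM against 208 in P. maniculatus, 275 in M. ochrogaster and 218 in M. pennsylvanicus. The log2 ratio was -7.35 (interval -7.62 to -7.10), from 126 counts in P. californicus and 21232 in P. maniculatus.

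P. maniculatus was apart at ENSRNOP00000033271, with 1.02 RPM against 196 in P. californicus, 282 in M. ochrogaster and 223 in M. pennsylvanicus. The log2 ratio was 7.37 (interval 7.09 to 7.66), and the 104 counts in P. maniculatus set its width. The last of these, ENSRNOP00000019555, was high in P. maniculatus alone, with 9256 RPM against 98.8 in P. californicus, 114 in M. ochrogaster and 84.0 in M. pennsylvanicus. Its log2 ratio was -6.77 (interval -6.80 to -6.74), and this single ID held 0.968% of the listed counts of P. maniculatus. In each of the 4 IDs, 3 libraries lay within a narrow band and 1 lay far outside it. The rule that picked the IDs fixed this shape in advance, so it is not a finding. The treatment of reads that fit more than 1 protein is not stated in labels or headers, and its part in these differences was not tested.

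**Figure D5:**
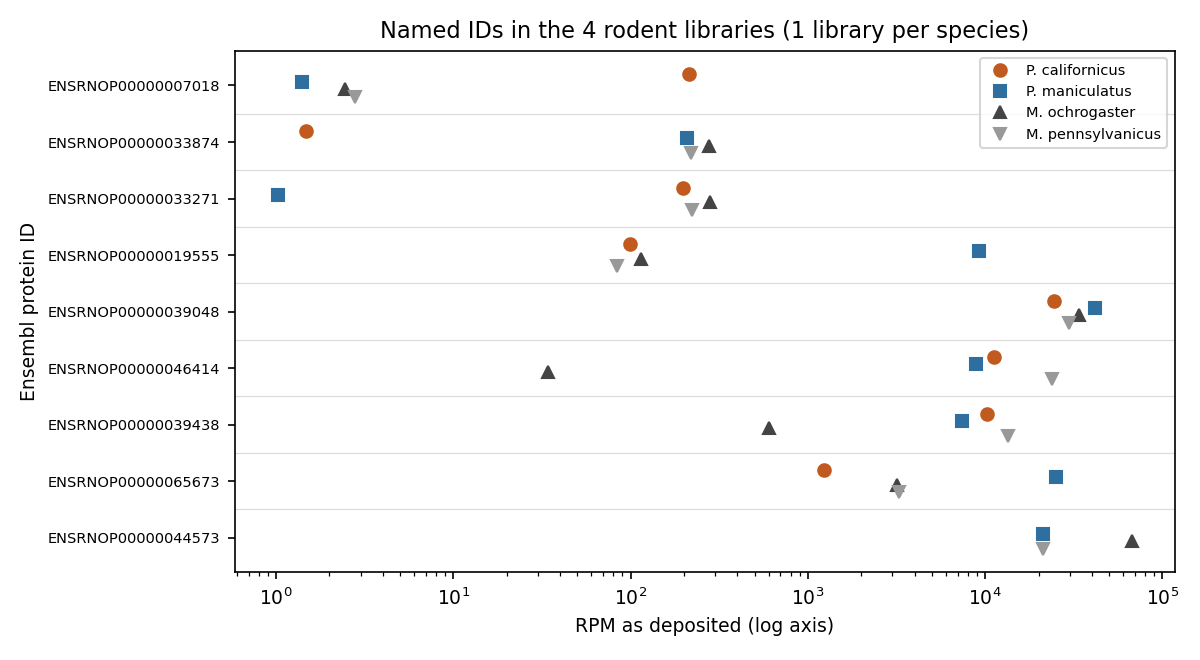
Deposited RPM (log axis) of the 9 named IDs in the 4 rodent libraries, 1 point per library and no error bars because each species has 1 library. In the upper 4 IDs a single Peromyscus library lies apart from the other 3 rodents, which the rule that picked them required. ENSRNOP00000044573 has no P. californicus point because it was not listed there.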

How the data were processed

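RNA of the fore- and midbrain was extracted with Trizol and made into libraries with a small RNA kit from NEB, per the labels' protocols, while the molecule field gives total RNA and the design text mRNA. The submitters' processing notes name Trimmomatic, BWA and SAMtools. Their versions, the reference and the rule for reads that fit more than 1 protein are not stated in labels or headers. Per the file headers, the authors deposited raw read counts per protein ID and RPM. The RPM deposited by the authors equals the count per 1000000 reads of 1 constant per library (84958567 reads in P. californicus, 101971826 in P. maniculatus), of which the listed IDs hold 93.8% and 95.6%.

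Raw counts of the 11102 shared IDs were scaled by TMM (edgeR 4.0.16, R 4.3.3), and for the vole reference over the 9375 IDs of all 4 tables. Ratios used no prior count, and correlations a prior count of 2. No test across species was made, because each species has 1 library. The ratio and its interval were run on simulated counts with known changes, which held counting error only and were scaled by the unchanged IDs. Neither the TMM scaling nor variation between libraries was part of that simulation, so it does not test them. Alternatives covered DESeq2 1.42.0 size factors, upper-quartile scaling, deposited RPM, count minimums, thinning, class definitions and the vole rule. The comparison, its classes and the alternatives were chosen with earlier results of these data known. Alternatives on the direction by class, those on the lower species, and the count of single libraries apart were added after the values were seen. Gene lists and cell type markers could not be applied without gene names. IDs were therefore named by rule: among IDs with at least 100 counts in all 4 rodents and both voles within 2-fold of 1 Peromyscus species, the largest ratio in each direction for each species apart, and the 3 IDs with the most reads per Peromyscus library. The other 6 libraries were not used here.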

Additional observations from a re-analysis of the deposited data

How the results depend on the processing

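No paired analysis was possible because each species has 1 library, and for the same reason no replicate could be left out. The count of IDs past 2-fold (4468 of 11102, 40.2%) ranged from 3108 to 4567 under the scalings, count minimums and the interval rule. The lowest count was out of 9509 IDs (32.7%) and the highest out of 11102 (41.1%). With unlisted IDs taken as 0 it was 9612 of 16265 (59.1%). The percent of IDs past 2-fold that were higher in P. californicus (54.4%) was 61.8% on deposited RPM and 56.3% with at least 100 counts in each table. It turned to 46.7% with unlisted IDs as 0, where more P. maniculatus than P. californicus IDs were unmatched. In the direction by class, the RPM scale turned 43.0% to 59.1% from 100 to 1000 CPM and 41.7% to 53.8% at 1000 CPM and over. Vole-based classes gave 56.3%, 36.6% and 19.8% past 2-fold from 1 to 10, 10 to 100 and 100 to 1000 CPM. They cover the 9375 IDs of all 4 rodent tables, whereas the classes of the 11102 shared IDs gave 67.1%, 32.3% and 15.5%. Thinning to 1 total left each class within its interval. With at least 10 RPM, 758 and 748 IDs remained in 1 Peromyscus table only. P. californicus was apart at 666 and P. maniculatus at 746 of 2086 IDs. These counts were 1121 and 1256 of 3612 IDs at 2-fold, and 251 and 296 of 802 at 16-fold. With both voles within 2-fold of 1 species they were 208 and 291 of 2086. They were 329 and 418 of 1106 with at least 100 counts in each library, and 1009 and 1077 of 2086 with M. ochrogaster alone. P. maniculatus was apart more often in each of these settings, and also over all 9375 IDs without a fold limit (3137 against 2850). The share with the lower species apart (72.2% of unsplit IDs) ranged from 63.2% to 76.6% with both voles as reference. The correlation (0.65) was 0.71 with at least 100 counts. Each other scaling moved all log2 ratios by 1 constant. It was 0.22 on deposited RPM, -0.011 with DESeq2 size factors and -0.007 with upper-quartile scaling. These shifts were too small to turn the sign of any named ratio, so the kept signs are not a test. The size did move, and the log2 ratio of ENSRNOP00000039048 went from -1.001 to -0.78 on deposited RPM, which is under 2-fold. Depth limits little from 10 CPM up, and the missing replicates limit every comparison.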
